A study of Mus musculus with 10 samples.

Results

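The oxidative phosphorylation genes are the nuclear genes for the respiratory chain and ATP synthase, and they were chosen by symbol: every listed gene whose symbol begins with Nduf, with Uqcr, with Sdha, Sdhb, Sdhc or Sdhd, with Cox and a digit, or with Atp5. Of 24015 listed genes, 103 matched, and the 99 of these with at least 10 reads summed over the 10 libraries are the members. They comprised 44 genes of complex I, 6 of complex II, 8 of complex III, 24 of complex IV, 16 of complex V and Atp5sl, which is not a subunit. Of the 99, 97 also passed the filter on low counts and were tested, among 12971 genes in all. The other two, Ndufa4l2 with 10 reads and Cox4i2 with 50, lay just inside the minimum. Just outside it were Cox8b with 1 read and Cox7b2, Cox8c and Ndufs5 with 0. Ndufs5 is a complex I subunit, and 31.1% of the 50-base windows of its transcript also occur in 1 pseudogene; the part of this in its count of 0 was not tested.

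Oxidative phosphorylation takes electrons from NADH through complex I, or from succinate through complex II, passes them by ubiquinone to complex III and by cytochrome c to complex IV, where oxygen is reduced. Complexes I, III and IV pump protons across the inner mitochondrial membrane, and complex V, the ATP synthase, lets them back to make ATP. Besides the subunits, each complex needs assembly factors that insert cofactors and join modules, and leukemic myeloid cells are known to draw on this pathway while mature neutrophils rely mostly on glycolysis.

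The libraries came from MAF9 cells, which are bone marrow of C57BL/6 mice given the fusion gene MLL-AF9 by transduction and grown with IL-3, so that every group, controls included, carried the fusion. Cells were treated for 4 days with MM-401, which blocks the contact of WDR5 with MLL1, with EPZ5676 against the methyltransferase DOT1L, with MI-2-2 against MENIN, with iBET against the BET proteins, or with the solvent DMSO alone. Below, these groups are MM401, EPZ, MI, iBET and DMSO, with 2 libraries each, described as biological duplicates. The comparisons ask how inhibitors of different partners of MLL1 and of the fusion protein change RNA levels in MAF9 cells. A transduced marrow culture is a model of 1 driver gene outside the animal, and the depositors' notes do not say whether the duplicates were separate transductions.

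Libraries held 20394762 to 29473127 reads assigned to genes, and a tested member had 100 to 295076 reads over all libraries, with a median of 16044. DMSO replicate 2 stood apart: it held 3630 reads of 4 Y-linked genes where the other 9 libraries held 0 to 2, and 4.76 CPM (counts scaled to a common library size) of Xist against 928 to 3050. By these markers its cells differ in sex from the rest, and summed levels, medians and some counts against DMSO are given with and without it. All 7 listed neutrophil markers were present, and their summed CPM was 652 and 3815 in DMSO, 4660 and 5996 in MM401, 47320 and 60350 in EPZ, 41010 and 42220 in MI, and 497 and 1175 in iBET. The 7 progenitor markers summed to 5533 and 9695 in DMSO and to 5663 and 5915 in MM401. In EPZ the sums were 1951 and 1800, in MI 1496 and 1062, and in iBET 1425 and 1033. In DMSO and MM401 most of the sum was Elane and Mpo, and single markers differed. Hoxa9 was at 482.2 and 388.3 CPM in DMSO and 537.2 and 520.1 in iBET. Elane was at 4542 and 4100 in DMSO and 772.5 and 386.9 in iBET. T cell, B cell and erythroid markers did not exceed 1.87 CPM in any library. Macrophage markers summed to 65.2 to 114.7 in DMSO, MM401 and iBET and to 314 to 658 in EPZ and MI, and fibroblast markers to at most 17.1.

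Members were lower after EPZ and MI, and nearly level after MM401 and iBET. Summed over the 99 members, the level in TMM-scaled CPM (CPM after scaling by edgeR's TMM method) was 10426 and 12015 in the DMSO libraries, 10682 and 10981 in MM401, 7625 and 9148 in EPZ, 7936 and 8085 in MI, and 9863 and 11181 in iBET. Levels of single genes below, given as CPM, are TMM-scaled as well. In the sum, both EPZ and both MI libraries lay below every other library, and the MM401 and iBET libraries overlapped those of DMSO. As a percentage of the DMSO mean, the sums were 74.7% with EPZ, 71.4% with MI, 93.8% with iBET and 96.5% with MM401. Against DMSO replicate 1 alone they were 80.4% with EPZ and 76.8% with MI. In bulk RNA, fewer cells of a type and less of these RNAs per cell cannot be told apart, and the neutrophil markers given above were higher in the same 4 libraries; their part in the result was not tested.

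**Figure D1:**
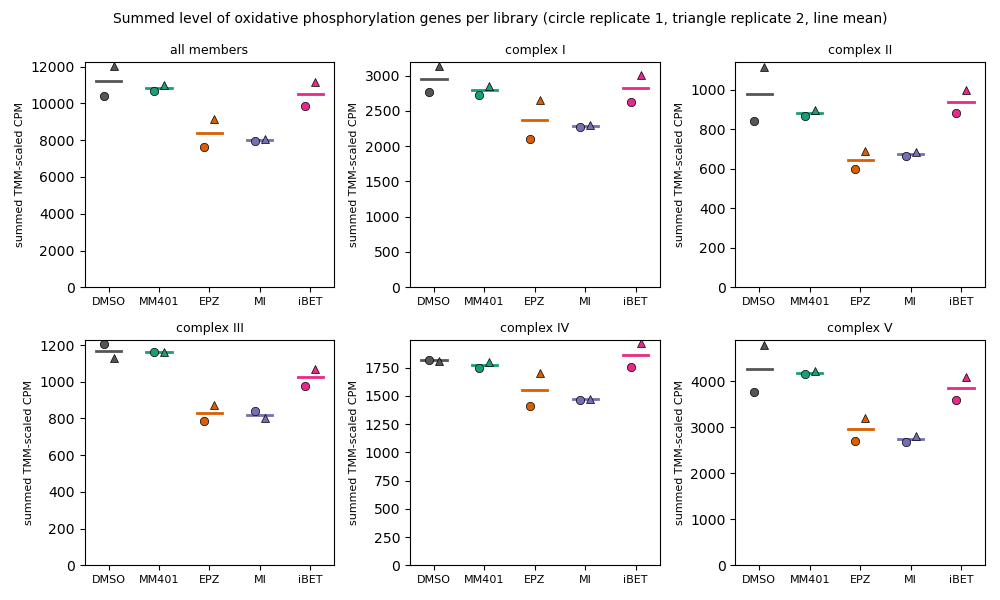
Summed level of the members in TMM-scaled CPM, on axes that start at 0, in each of the 10 libraries, for all 99 members and for each complex. Circles are replicate 1, triangles replicate 2 and lines group means; the EPZ and MI means lie at 74.7% and 71.4% of the DMSO mean over all members.

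With EPZ, 31 of 97 members fell and 0 rose against DMSO at an adjusted p under 0.05 by the quasi-likelihood test of edgeR, adjusted over all genes by Benjamini-Hochberg. Over all genes tested, 19.4% fell and 18.7% rose. The members' median log2 fold change was -0.32, and that of all genes -0.06; 80 of the 97 members lay below 0, or 82.5%, against 52.8% of all genes. Without DMSO replicate 2 the count was 22, all of which fell, or 22.7% of members against 16.6% of all genes. It was 16 without EPZ replicate 1, of which 13 fell and 3 rose, and 20 without EPZ replicate 2, all of which fell; in these fits 25.5% and 19.7% of all genes were called in either direction. In these fits a lone library is assumed to vary like the other groups.

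With MI, 44 of 97 members fell and 0 rose against DMSO by the same test, while 21.2% of all genes fell and 20.2% rose. The median over the members was -0.43 and that over all genes -0.05, and 87 members lay below 0. The count was 25 without DMSO replicate 2 (25.8% of members fell, and 17.2% of all genes), 28 without either MM401 library, 10 without MI replicate 1 and 7 without MI replicate 2, and each of those calls was a fall. Without MI replicate 1 or 2, 26.2% and 20.7% of all genes were called in either direction, so the members called were fewer than that share gives. The log2 fold changes of all 44 kept their sign in these fits. The EPZ and MI comparisons share the DMSO libraries, so their values are set side by side only.

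**Figure D2:**
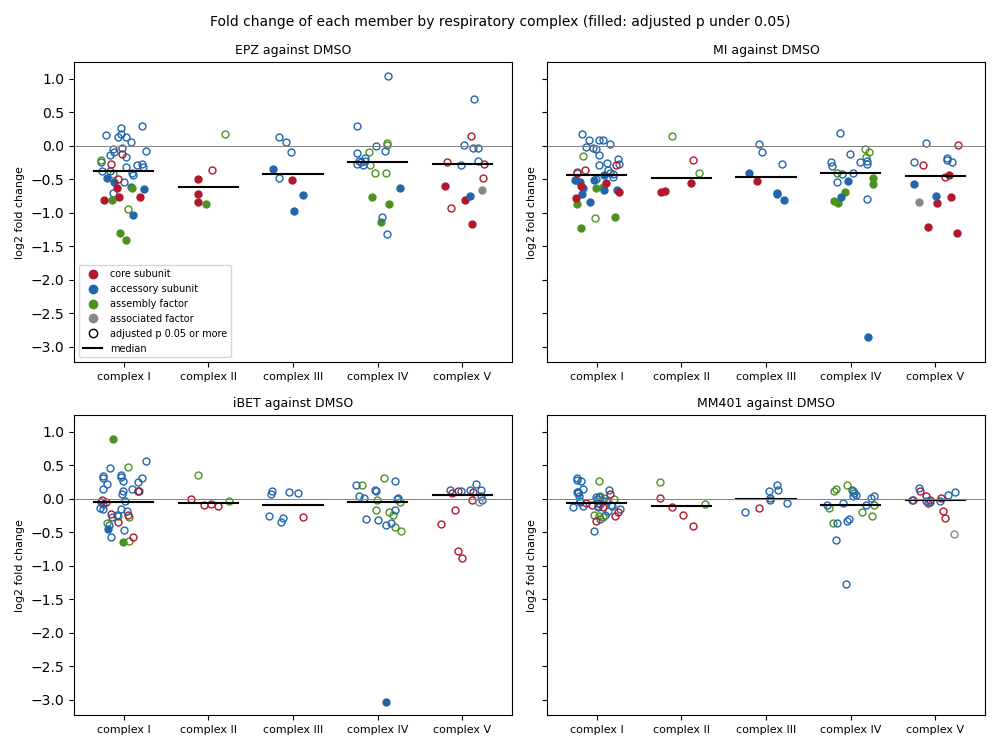
Log2 fold change of each tested member against DMSO, by complex, for the 4 inhibitors. Filled points have an adjusted p under 0.05, colours give the role, and lines are medians; with EPZ and MI all filled points lie below 0, with iBET 1 lies above, and with MM401 none is filled.

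By role, core subunits stood lower than accessory subunits in complexes I and V, and so did the assembly factors of complex I. Core subunits of complex I, which carry the catalytic centres, had a median log2 fold change of -0.64, its assembly factors -0.82 and its accessory subunits -0.27. The corresponding medians with MI were -0.55, -0.87 and -0.40. In complex V the core subunits had medians of -0.54 with EPZ and -0.62 with MI, and the accessory subunits -0.04 and -0.24. Without DMSO replicate 2 the gaps narrowed: with EPZ the complex I medians were -0.32 for core subunits, -0.57 for assembly factors and -0.19 for accessory subunits, and with MI -0.33, -0.53 and -0.25. In complex V the core medians were then -0.27 with EPZ and -0.35 with MI, and the accessory medians 0.00 and -0.08. Over all complexes, 8 of 18 assembly factors fell with EPZ and 10 of 18 with MI, or 44.4% and 55.6%. Of 77 subunits 21 and 32 fell, or 27.3% and 41.6%, against 19.4% and 21.2% of all genes. The medians were -0.527 and -0.598 for assembly factors, and -0.285 and -0.414 for subunits. Without DMSO replicate 2 they were -0.478 and -0.496, and -0.192 and -0.285, where all genes had -0.005 and 0. In that fit the share of subunits that fell with EPZ was close to that of all genes. The difference between roles was not tested. Transcript length moved with role and with the change: across the 97 members Spearman's rho between the length of the longest transcript and the log2 fold change was -0.27 with EPZ and -0.19 with MI, and over 12867 genes 0.04 and 0.06. These are correlations over genes of the same libraries and so have no independent replicates.

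The promoters of the members held known motifs of respiratory genes more often than other promoters. Windows from 250 bases before to 50 bases after the start were taken from RefSeq (GRCm38.p6) for 80 of the 99 members, 87 windows in all, and searched on both strands. The letters GCGCATGC, the core bound by NRF1, occurred in 13.8% of the members' windows and in 2.7% of all 32851 windows. CCGGAAG, a core of the ETS family to which GABPA belongs, occurred in 28.7% and 8.9%. AAGATGGC, a core of YY1, occurred in 14.9% and 2.7%. Among the 12855 windows of genes tested here the shares were 5.0% for NRF1, 17.2% for ETS and 4.3% for YY1. With EPZ, 3 of 12 members with the NRF1 core fell and 20 of 68 without it, 6 of 24 with the ETS core and 17 of 56 without it, and 5 of 12 with the YY1 core and 18 of 68 without it. With MI the counts were 5 of 12 and 30 of 68 for NRF1, 8 of 24 and 27 of 56 for ETS, and 8 of 12 and 27 of 68 for YY1. The shares that fell were thus lower with the NRF1 core and with the ETS core, and higher with the YY1 core. This held in both comparisons, which share DMSO, and these differences were not tested.

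The windows of 4 members that fell are shown because each holds one of these cores; they were picked after their values were seen. Capitals mark the cores and their reverse complements, and each window is written on the strand of the gene. Where GCGCATGC overlaps its own reverse complement, the capitals run on.
Ndufaf4, chr4:24897833-24898132, plus strand: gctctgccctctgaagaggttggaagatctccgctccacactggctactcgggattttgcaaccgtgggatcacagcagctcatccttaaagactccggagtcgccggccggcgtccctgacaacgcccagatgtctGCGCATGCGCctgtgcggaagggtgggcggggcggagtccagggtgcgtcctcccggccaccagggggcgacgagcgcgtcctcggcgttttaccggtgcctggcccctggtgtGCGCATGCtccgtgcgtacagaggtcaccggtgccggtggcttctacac
Uqcrc1, chr9:108936398-108936697, plus strand: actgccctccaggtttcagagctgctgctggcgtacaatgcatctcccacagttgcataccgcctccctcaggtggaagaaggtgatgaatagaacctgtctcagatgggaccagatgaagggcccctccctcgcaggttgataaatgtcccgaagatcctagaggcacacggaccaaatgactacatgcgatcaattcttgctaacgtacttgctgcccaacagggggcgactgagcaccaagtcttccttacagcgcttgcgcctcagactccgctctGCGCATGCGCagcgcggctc
Cox10, chr11:64079423-64079722, minus strand: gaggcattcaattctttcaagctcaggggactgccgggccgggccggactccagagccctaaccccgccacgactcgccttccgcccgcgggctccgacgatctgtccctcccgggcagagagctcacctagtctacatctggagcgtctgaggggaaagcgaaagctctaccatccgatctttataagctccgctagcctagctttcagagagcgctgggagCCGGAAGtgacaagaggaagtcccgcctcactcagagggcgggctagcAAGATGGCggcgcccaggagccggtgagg
Cox15, chr19:43752951-43753250, minus strand: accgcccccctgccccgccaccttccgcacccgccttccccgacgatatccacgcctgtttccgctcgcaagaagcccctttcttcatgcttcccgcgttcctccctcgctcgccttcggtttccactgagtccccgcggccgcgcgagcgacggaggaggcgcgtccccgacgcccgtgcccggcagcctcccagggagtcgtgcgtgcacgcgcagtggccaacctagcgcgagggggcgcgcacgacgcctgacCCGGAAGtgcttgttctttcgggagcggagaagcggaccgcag

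Complex I had 13 of 43 tested members that fell with EPZ and 19 with MI, or 30.2% and 44.2% against 19.4% and 21.2% of all genes. Its summed level was 80.5% and 77.3% of DMSO, and 85.8% and 82.4% of DMSO replicate 1 alone. The median log2 fold change was -0.38 and -0.44, and -0.31 and -0.35 without DMSO replicate 2, where that of all genes was -0.005 and 0. In that fit the share that fell was close to that of all genes with EPZ and above it with MI. Ndufv1, which holds the flavin site where NADH is oxidised, was at 90.3 and 110.0 CPM in the DMSO libraries, 90.8 and 83.3 in MM401, 60.9 and 56.8 in EPZ, 67.6 and 69.1 in MI, and 79.3 and 90.7 in iBET. The EPZ and MI libraries were lower than all others. Its log2 fold change was -0.77 (SE 0.13, adjusted p = 0.00373) with EPZ and -0.55 (SE 0.13, adjusted p = 0.0123) with MI, the latter lost without DMSO replicate 2 or either MI library. Ndufs7, the subunit with the last iron-sulfur cluster before ubiquinone, was at 78.9 and 78.5 CPM in DMSO, 46.6 and 54.8 in EPZ, and 55.1 and 48.8 in MI. Neither treated pair overlapped with DMSO, and Ndufs7 fell by 0.64 (adjusted p = 0.00573) with EPZ and by 0.60 (adjusted p = 0.00655) with MI, the latter lost without MI replicate 2. Ndufa10, an accessory subunit of the membrane arm, was at 93.5 and 140.0 CPM in DMSO and 56.8 and 56.4 in EPZ, a log2 fold change of -1.04 (SE 0.19), and it fell by 0.85 (SE 0.19) with MI, a call lost without MI replicate 1.

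With EPZ, the called members with the most negative log2 fold changes were 2 assembly factors of complex I, Ndufaf4 and Ndufaf6. Ndufaf4, an early assembly factor whose window above holds the NRF1 core in 2 stretches, was at 24.2 and 53.4 CPM in DMSO, 42.4 and 50.3 in MM401, 12.1 and 17.1 in EPZ, 14.0 and 19.0 in MI, and 25.8 and 38.9 in iBET. The DMSO libraries differed from each other by more than the EPZ and MI libraries did, but none of the latter reached them. Its log2 fold change was -1.41 (SE 0.39, adjusted p = 0.0247) with EPZ and -1.23 (SE 0.39, adjusted p = 0.0363) with MI, and both calls were lost without DMSO replicate 2 or either library of the inhibitor, and that with MI also without either MM401 library. Ndufaf6, which is needed for an early step in building complex I, was steadier, at 11.2 and 11.0 CPM in DMSO, 4.70 and 4.28 in EPZ and 5.42 and 5.22 in MI. It fell by 1.30 (SE 0.23, adjusted p = 0.00391) and 1.06 (SE 0.22, adjusted p = 0.00772) on the log2 scale, and the call with EPZ was made in all 10 fits that leave out 1 library; that with MI was lost without MI replicate 2. Ndufaf1, a further assembly factor, fell with EPZ, MI and iBET, by 0.63, 0.63 and 0.66 (SE 0.15 each). Its calls were lost without either EPZ library, without MI replicate 2, and without any MM401 or iBET library, respectively.

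Complex II, which also works in the TCA cycle, had 4 of 6 members that fell with EPZ and 3 with MI. These were 66.7% and 50%, against 19.4% and 21.2% of all genes. The median log2 fold change was -0.613 and -0.48, and -0.359 and -0.265 without DMSO replicate 2. In that fit the share that fell was above that of all genes with EPZ and close to it with MI. Sdha, its flavin subunit that oxidises succinate, was at 318.7 and 458.9 CPM in DMSO, 322.9 and 333.1 in MM401, 213.6 and 221.9 in EPZ, 237.0 and 243.1 in MI, and 339.7 and 386.4 in iBET. EPZ and MI libraries lay together below the rest, with log2 fold changes of -0.84 (SE 0.17, adjusted p = 0.00772) and -0.70 (SE 0.17, adjusted p = 0.0144), the latter lost without either MI library. Sdhc and Sdhd, the membrane anchors, fell by 0.72 and 0.51 with EPZ and by 0.67 and 0.56 with MI, and the calls of both genes with both inhibitors were lost without DMSO replicate 2 or without libraries of the inhibitor (either one, but for Sdhd with EPZ replicate 1 alone), and that of Sdhc with MI also without either MM401 library. Sdhb, the iron-sulfur subunit, was at 82.1 and 101.7 CPM in DMSO, 62.6 and 79.7 in EPZ and 76.4 and 81.2 in MI, and its adjusted p was 0.117 and 0.316. Sdhaf1, which helps insert iron-sulfur clusters into Sdhb, was at 12.6 and 14.8 CPM in DMSO and 7.28 and 7.72 in EPZ (log2 fold change -0.87, SE 0.18, adjusted p = 0.00806); 69.0% of the 50-base windows of its transcript occur in another gene, so its counts are uncertain.

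Complex III had 4 of 8 members that fell with EPZ and 5 with MI, or 50% and 62.5% against 19.4% and 21.2% of all genes. The median log2 fold change was -0.419 and -0.469, and -0.287 and -0.424 without DMSO replicate 2. Its summed level was 71.0% and 70.2% of DMSO and 68.8% and 68.1% of DMSO replicate 1. In 4 comparisons the smallest adjusted p of any member belonged to Uqcrc1. Uqcrc1, a core protein on the matrix side of the complex whose window above holds the NRF1 core, was at 335.0 and 326.6 CPM in DMSO, 357.8 and 356.9 in MM401, 177.0 and 160.8 in EPZ, 209.7 and 195.1 in MI, and 269.4 and 283.9 in iBET. Its libraries were close within every group, and the EPZ and MI libraries were far below the rest. The log2 fold change was -0.97 (SE 0.11, adjusted p = 0.000854) with EPZ and -0.71 (SE 0.11, adjusted p = 0.0022) with MI against DMSO, and -1.08 and -0.82 against MM401. All 4 calls were made in every fit that leaves out 1 library. Uqcrb, a small subunit, was at 32.5 and 33.2 CPM in DMSO, 30.4 and 41.5 in EPZ and 30.2 and 36.3 in MI, which overlapped; 43.4% of its windows are shared with other genes, so part of its counts cannot be assigned.

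Complex IV was at a summed level of 85.5% of DMSO with EPZ and 80.8% with MI (85.4% and 80.6% of DMSO replicate 1 alone). Of its 23 tested members 4 fell with EPZ, or 17.4%, below the 19.4% of all genes, and 8 fell with MI, or 34.8% against 21.2%. The median log2 fold change was -0.247 and -0.416, and -0.212 and -0.424 without DMSO replicate 2. In that fit the share that fell was above that of all genes with EPZ and close to it with MI. Cox4i1, the subunit that most tissues use to tune the enzyme, was at 301.2 and 348.8 CPM in DMSO, 251.6 and 287.4 in EPZ and 269.6 and 280.9 in MI. MM401 libraries held 325.7 and 342.6 and iBET libraries 350.8 and 394.6. The EPZ and MI libraries were thus below the other 6, but the adjusted p was 0.137 with EPZ and 0.174 with MI. The members that fell were mostly assembly factors. Cox15, which makes heme A for the catalytic subunit, was at 107.7 and 105.7 CPM in DMSO, 88.6 and 88.7 in MM401, 66.9 and 58.5 in EPZ, 75.6 and 67.6 in MI, and 93.8 and 92.5 in iBET. The order DMSO, iBET, MM401, MI, EPZ had no overlap between neighbours, though iBET and MM401 against DMSO did not pass the test (adjusted p = 0.257 and 0.426). With EPZ Cox15 fell by 0.77 (SE 0.11, adjusted p = 0.00195) and with MI by 0.58 (SE 0.11, adjusted p = 0.00529), and both calls were made in every fit that leaves out 1 library. Cox10, which acts just before Cox15 in heme A synthesis and whose window holds an ETS and a YY1 core, was at 24.2 and 40.3 CPM in DMSO, 16.0 and 19.1 in EPZ and 17.8 and 18.4 in MI. It fell by 0.88 (SE 0.25, adjusted p = 0.0284) with EPZ and 0.83 (SE 0.25, adjusted p = 0.0313) with MI, and neither call was made without DMSO replicate 2, either MM401 library or either library of the inhibitor. Cox18, which inserts a mitochondrially encoded subunit into the membrane, fell by 1.14 (SE 0.26, adjusted p = 0.0115) with EPZ, from 19.8 and 27.6 CPM to 12.8 and 8.75, and the call was lost without EPZ replicate 2.

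**Figure D3:**
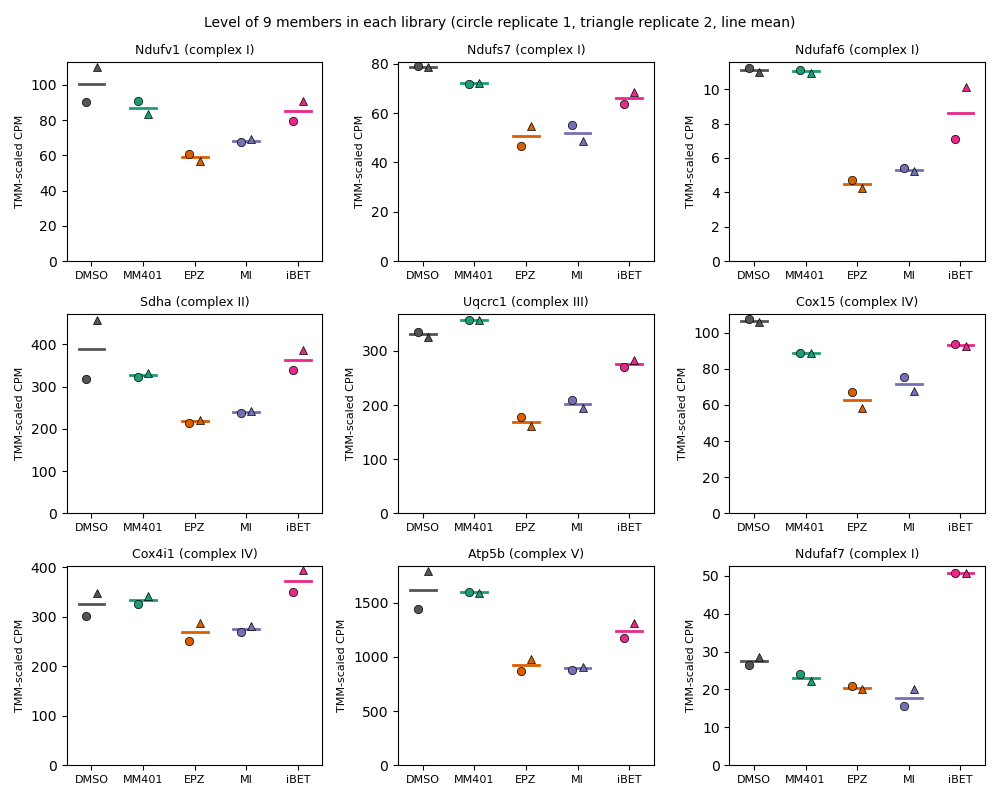
TMM-scaled CPM of 9 members in each library, on axes that start at 0, with group means as lines. Uqcrc1, Cox15, Atp5b, Ndufaf6 and Sdha are lower in both EPZ and both MI libraries than in any other; Cox4i1 is lower by less, and Ndufaf7 is highest in the iBET libraries at 50.7 CPM each.

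Complex V had the largest share of the members' reads, and its summed level was 69.3% of DMSO with EPZ and 64.2% with MI, and 78.8% and 73% of DMSO replicate 1 alone. Atp5b and Atp5a1 made up most of this sum. Atp5a1 was at 948.8 and 1405 CPM in DMSO, 717.8 and 826.4 in EPZ, and 682.7 and 699.9 in MI. Its call with EPZ was lost in most fits that leave out 1 library. With EPZ 5 of 16 members fell and with MI 8, or 31.2% and 50% against 19.4% and 21.2% of all genes. The median log2 fold change was -0.281 and -0.455, and -0.163 and -0.282 without DMSO replicate 2. In that fit the share that fell was close to that of all genes with EPZ and above it with MI. Atp5b, the catalytic beta subunit, was the member with the highest level per length (663 RPKM over all libraries). RPKM is CPM without TMM scaling, divided by transcript length in kilobases. Atp5b was at 1447 and 1791 CPM in DMSO, 1602 and 1591 in MM401, and 866.5 and 980.2 in EPZ. It was at 878.3 and 910.0 in MI, and 1174 and 1313 in iBET. EPZ and MI libraries were lowest, iBET libraries lay between, and MM401 libraries lay inside the DMSO range. The log2 fold change was -0.81 (SE 0.16, adjusted p = 0.00614) with EPZ and -0.86 (SE 0.16, adjusted p = 0.00458) with MI, and the adjusted p with iBET was 0.138. Both calls against DMSO were made in every fit that leaves out 1 library.

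The isoforms of subunit c, the ring that turns as protons pass, were unequal in level. Atp5g3 was at 245.3 and 331.9 CPM in DMSO, 196.1 and 218.5 in EPZ and 195.4 and 220.0 in MI, below DMSO in each library, with an adjusted p of 0.0568 and 0.0545. Atp5g1 was at 9.50 and 19.99 CPM in DMSO, 5.48 and 7.58 in EPZ and 5.68 and 6.97 in MI, and fell by 1.17 (SE 0.35, adjusted p = 0.0324) and 1.22 (SE 0.35, adjusted p = 0.0261); among fits that leave out 1 library, the call with EPZ was made without DMSO replicate 1 or MI replicate 1 alone, and that with MI was lost without DMSO replicate 2 or either MI library. Atp5g2 was low throughout, at 0.475 to 1.56 CPM, and its call with MI (log2 fold change -1.30, SE 0.41, adjusted p = 0.0361) was made in 1 of the 10 fits that leave out 1 library and had an adjusted p of 0.101 by DESeq2.

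In the families of complex IV, the widely expressed isoform was the abundant one in every group. Cox6a1, Cox6b1, Cox7a2, Cox7b and Cox8a lay between 86.3 and 222.9 CPM in every library, and the forms known from heart, muscle, testis or lung, Cox6a2, Cox6b2, Cox7a1 and Cox4i2, lay between 0.0383 and 4.28. Of the abundant ones, Cox7b fell with MI (by 0.53, SE 0.16, adjusted p = 0.0312; lost without DMSO replicate 2, either MM401 or either MI library), and Cox7a2 did not pass (adjusted p = 0.0608). Cox6a2, with 100 reads in all, was at 1.56 and 0.479 CPM in DMSO, 0.0867 and 0.183 in MI, and 0.0442 and 0.191 in iBET. Its calls against DMSO (log2 fold change -2.86, SE 0.80, adjusted p = 0.0228 with MI; -3.03, SE 0.81, adjusted p = 0.0459 with iBET) were lost without DMSO replicate 1, which held most of its DMSO reads. That with MI was also lost without either MI library, and that with iBET was kept only without DMSO replicate 2. Cox7a2l, a further gene of the Cox7a family, was at 60.4 and 62.6 CPM in MM401 and 94.9 and 95.7 in EPZ. With EPZ against MM401 it rose by 0.63 on the log2 scale (SE 0.21, adjusted p = 0.0474). This call was made in the fits without a DMSO library but in no other fit that leaves out 1. It was not made with library totals (adjusted p = 0.127). DMSO held 96.0 and 59.6, so EPZ against DMSO did not pass (adjusted p = 0.289). Ndufa4, counted here with complex I though now often placed in complex IV, was at 104.7 to 202.9 CPM, and its relative Ndufa4l2 had at most 0.156.

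**Figure D4:**
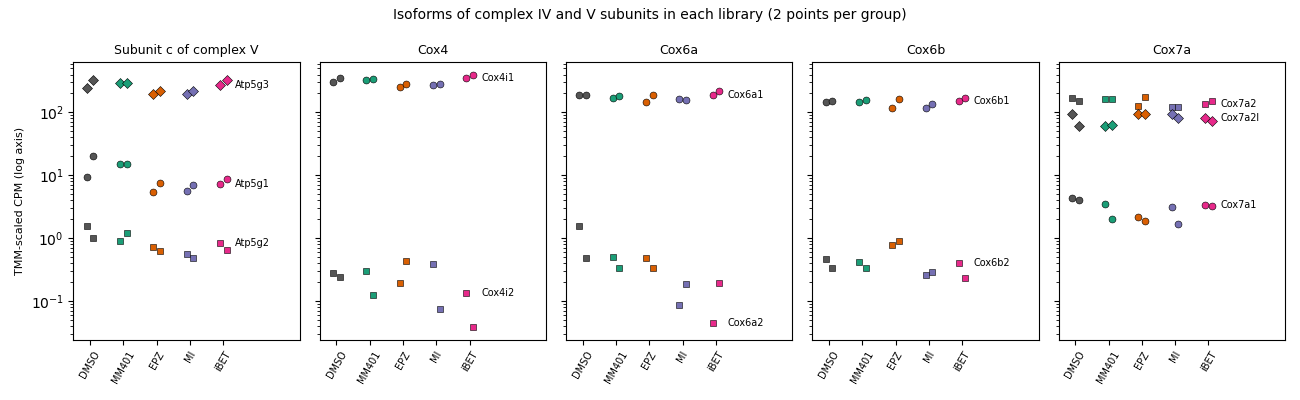
TMM-scaled CPM on a log axis of the isoforms of subunit c, Cox4, Cox6a, Cox6b and Cox7a, 2 points per group. Atp5g3, Cox4i1, Cox6a1, Cox6b1 and Cox7a2 lie above their relatives in every library, and Cox6a2 is lowest in the MI and iBET libraries.

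Levels per length placed Ndufa2 highest and Ndufab1 lowest among complex I subunits tested (150.3 and 1.27 RPKM), Sdhd and Sdhc in complex II (194.1 and 37.7), Uqcr10 and Uqcrb in complex III (153.8 and 62.0), Cox4i1 and Cox6a2 in complex IV (414.4 and 0.635), and Atp5b and Atp5g2 in complex V (663 and 1.15). With the median in place of the longest transcript, complexes IV and V and the lowest of complex III kept these genes, while the others became Ndufa4 and Ndufb4, Sdha and Sdhb, and Uqcrc1 as the highest of complex III. Ndufab1, the acyl carrier protein of the mitochondrion, fell with EPZ against MM401 by 1.01 (SE 0.26, adjusted p = 0.0207; lost without any MM401 or EPZ library), and did not pass against DMSO (adjusted p = 0.0626).

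iBET changed few members. Against DMSO 1 of 97 rose and 3 fell, where 6.38% of all genes rose and 7.54% fell, and the median was -0.04 for the members and for all genes. With the replicate number as a block, 9 were called (3 rose, 6 fell), where 23.8% of all genes were. DESeq2 called 11, where 16.2% of all genes were called. Fewer members were called when any MM401, EPZ, MI or iBET library was left out, and more without DMSO replicate 1. In each of these fits the share of members called was below that of all genes. The median was 0.021 or -0.116 without iBET replicate 1 or 2, and -0.072 without DMSO replicate 1. Ndufaf7, a methyltransferase that acts in complex I assembly, was at 26.4 and 28.6 CPM in DMSO, 24.1 and 22.2 in MM401, 20.95 and 20 in EPZ, 15.6 and 20.1 in MI, and 50.7 and 50.7 in iBET. The iBET libraries stood above all the others, and the gene rose by 0.88 (SE 0.16, adjusted p = 0.0123) against DMSO and by 1.13 (SE 0.16, adjusted p = 0.00571) against MM401, while with MI it fell by 0.62 (SE 0.16, adjusted p = 0.0152; lost without MI replicate 1). The call with iBET against DMSO was lost without either iBET library, and that against MM401 without iBET replicate 2 or MM401 replicate 2. The 3 that fell were Ndufaf1, Cox6a2 and Ndufb8, an accessory subunit of complex I named after its value was seen. Ndufb8 was at 109.5 and 115.2 CPM in DMSO, 74.5 and 88.8 in iBET, 67.0 and 76.9 in EPZ, and 85.3 and 80.04 in MI, and fell with all 3. Among the 10 fits that leave out 1 library, its call was made in 10 with EPZ, in 5 with MI (lost without DMSO replicate 2 or any MM401 or MI library) and in 1 with iBET, that without DMSO replicate 1.

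MM401 changed no member against DMSO at the threshold: 0 of 97 by edgeR, with 3 at an unadjusted p under 0.05, and 0 by DESeq2. Over all genes 0% were called by edgeR and 1450 of 12971 had an unadjusted p under 0.05. The members' median was -0.05, and -0.088 without DMSO replicate 1. In that fit some members fell, a smaller share than that of all genes called.

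Against MM401 in place of DMSO, EPZ and MI again gave mostly lower members. With EPZ 24 fell and 1 rose, where 16.6% of all genes fell and 16.7% rose, and the median was -0.25. With MI 23 fell and 0 rose, where 17.6% of all genes fell and 18% rose, and the median was -0.36, with 90 of 97 members below 0. Most of these calls were lost when an MM401 library or a library of the inhibitor was left out. The share of members called was then below that of all genes. The EPZ median was -0.285 or -0.235 without MM401 replicate 1 or 2, and -0.146 or -0.41 without EPZ replicate 1 or 2. The MI median was -0.375 or -0.32 without MM401 replicate 1 or 2, and -0.35 or -0.381 without MI replicate 1 or 2. With the replicate number as a block 45 members were called with MI, where 46% of all genes were called in either direction. Ndufb2, an accessory subunit of complex I, was at 47.4 and 51.1 CPM in MM401, 26.3 and 31.7 in EPZ, 28.4 and 28.1 in MI, 38.8 and 42.2 in DMSO, and 52.9 and 58.3 in iBET. It fell by 0.76 (SE 0.14, adjusted p = 0.00522) with EPZ and 0.80 (SE 0.14, adjusted p = 0.00419) with MI against MM401, in every fit that leaves out 1 library. With iBET against MM401 1 member rose (Ndufaf7) and 0 fell, where 5.48% and 5.96% of all genes did, and the block gave 4 calls. The 0 that fell by edgeR compares with 2 by DESeq2, and 8 members had an unadjusted p under 0.05.

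EPZ and MI were not told apart by any member: 0 of 97 were called in the direct comparison, by edgeR and by DESeq2, with 5 at an unadjusted p under 0.05, and 0.0154% of all genes were called. The median difference was 0.08, and Uqcrc1 differed by -0.26 (SE 0.11, adjusted p = 0.656). This does not show that the inhibitors act alike on these genes. The EPZ libraries differed from each other: 83 of 97 members were higher in replicate 2, with a median log2 difference of 0.31, where it was 0.03 over all genes. The members' median against DMSO was accordingly -0.18 without EPZ replicate 1 and -0.52 without EPZ replicate 2. The iBET replicates differed by 0.19, the DMSO replicates by 0.11, and the MI and MM401 replicates by 0.04 and 0.05.

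**Figure D5:**
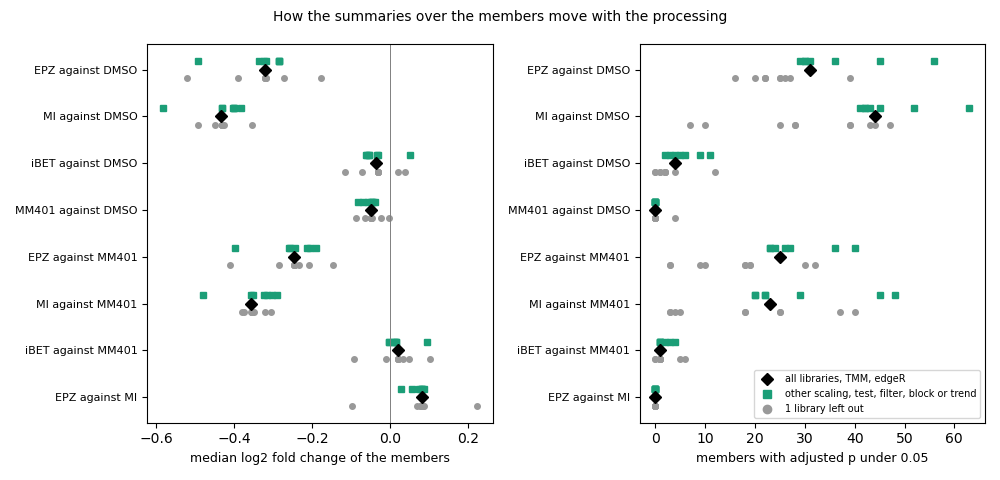
Median log2 fold change of the members (left) and number with an adjusted p under 0.05 (right) for the 8 comparisons. Diamonds use all libraries with TMM scaling and edgeR, squares another scaling, test, filter, block or trend, and grey points leave out 1 library; for EPZ and MI against DMSO every median lies below 0, and the MI count runs from 7 to 63.

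Other genes of the mitochondrion also fell with EPZ and MI, counted by lists of pathway genes. Of 17 genes of the TCA cycle and pyruvate dehydrogenase, which feed the chain with NADH and succinate, 16 fell with EPZ, 13 with MI, 2 with iBET and 0 with MM401; the shares of all genes that fell were 19.4%, 21.2%, 7.54% and 0%. Without DMSO replicate 2 the counts were 12 with EPZ, 9 with MI and 1 with iBET. Dlat, a subunit of pyruvate dehydrogenase, fell by 1.08 (SE 0.10, adjusted p = 0.000618) with EPZ and by 0.93 (SE 0.10, adjusted p = 0.000827) with MI. Of 22 genes of import and carrier transport, 15 and 17 fell (11 and 14 without DMSO replicate 2), with Tomm20, a receptor of the outer membrane import pore, down by 1.03 and 1.11 (SE 0.11 each). Of 28 partner subunits and assembly factors outside the naming rule, 15 and 14 fell (11 and 10 without DMSO replicate 2). No member of these 3 lists rose with EPZ or MI.

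Of 14 regulators of mitochondrial gene expression, 6 fell and 1 rose with EPZ, and 8 fell and 1 rose with MI. The shares that fell were 42.9% and 57.1%, against 19.4% and 21.2% of all genes, while 18.7% and 20.2% of all genes rose. The list's median was -0.569 with EPZ and -0.653 with MI, and -0.355 and -0.574 without DMSO replicate 2. Polrmt, the mitochondrial RNA polymerase, fell by 1.39 (SE 0.19, adjusted p = 0.00164) with EPZ, and Tfb1m, a methyltransferase of mitochondrial ribosomal RNA, by 1.16 (SE 0.17, adjusted p = 0.00202) with MI. Of the factors whose cores were searched above, Nrf1, Gabpa and Yy1 had adjusted p = 0.519, 0.296 and 0.166 with EPZ and 0.962, 0.0955 and 0.0659 with MI. Gabpb1, the partner of Gabpa, fell with MI by 0.45 (SE 0.11, adjusted p = 0.0127) and had an adjusted p of 0.0561 with EPZ. Ppargc1a, a coactivator of mitochondrial genes, was at 0.623 and 0.336 CPM in DMSO, 5.52 and 5.16 in iBET, 2.87 and 5.42 in MM401, 0.146 and 0.141 in EPZ, and 0.173 and 0.438 in MI. It rose with iBET by 3.45 on the log2 scale (SE 0.53, adjusted p = 0.00829), where the members' median was -0.04, and did not pass with MM401 (log2 fold change 3.08, SE 0.53, adjusted p = 0.223). A mixed list held uncoupling proteins, alternative electron routes (Gpd2, Dhodh, Prodh, Sqrdl), and Hk1, Hk2, Ldha, Pdk1, Pdk2, Pdk3 and Pdk4, which act on glucose and pyruvate. Of its 11 tested genes, 1 fell and 2 rose with EPZ, and 2 fell and 3 rose with MI. With EPZ this is 9.09% and 18.2%, against 19.4% and 18.7% of all genes. With MI 18.2% fell, against 21.2% of all genes, and 3 of 11 rose, where 20.2% of all genes did. The list's median was -0.12 with each inhibitor, and -0.072 and -0.174 without DMSO replicate 2. Dhodh, which feeds electrons from pyrimidine synthesis to ubiquinone, fell by 1.62 (SE 0.18, adjusted p = 0.000824) with EPZ and 1.42 (SE 0.18, adjusted p = 0.00112) with MI.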

How the data were processed

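Gene-level read counts were deposited by the authors as 1 table of raw counts for the 10 libraries. Per the labels, RNA was taken with RNeasy columns and libraries made with a TruSeq kit, reads were processed with TopHat2, Subread and DESeq on mm9, while versions, and how reads that map to several genes were treated, were not given in the sources used here. Counts were tested with edgeR 4.0.16 (R 4.3.3): genes were kept by filterByExpr on group, scaled by TMM, and fitted together for all 5 groups with glmQLFit and glmQLFTest, and p-values were adjusted by Benjamini-Hochberg over 12971 genes with a threshold of 0.05. Standard errors are of the log2 fold change, and fits were tested on simulated data. With 2 libraries a group, p-values measure the spread between these libraries only.

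Alternatives were library totals, DESeq2 size factors, DESeq2 1.42.0, no filter beyond 10 reads, a filter of 5 CPM in 2 libraries, the replicate number as a block, a removed trend with transcript length and GC content (GENCODE, 98.4% of symbols matched), and each library left out. Sums, complexes, roles and lists without DMSO replicate 2, and the fits for Ndufb8, were added after seeing the data. Replicate differences correlated between all 10 pairs of groups (r = 0.303 to 0.704 over genes), so the replicate number, given in the labels, was used as a block in an alternative fit. The main tests had no block and are not paired. DMSO replicate 2 differs in sex from every other replicate 2. Named members were those called at 2-fold or more, those with the smallest adjusted p per complex and direction, complex II subunits, isoform families, and the highest and lowest per length; other names were added after their values were seen. Members and lists were chosen with earlier results of these data known. In 18 of 103 matching genes at least 25% of 50-base windows occur in other genes' transcripts. Subunits encoded by mitochondrial DNA were not analysed here.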

Additional observations from a re-analysis of the deposited data

How the results depend on the processing

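Depth limits few members (median 16044 reads), Cox6a2 and Cox6b2 among them; 2 libraries a group are the main limit, and a lone library left in a group is assumed to vary like the others. With library totals the median of all genes moved from -0.06 to -0.23 with EPZ and from -0.05 to -0.20 with MI against DMSO; the members' medians became -0.49 and -0.58, or -0.26 and -0.38 relative to all genes as with TMM (-0.26 and -0.38). Library totals gave 56 calls with EPZ and 63 with MI against DMSO, where 42.9% and 44.8% of all genes were called in either direction. Against MM401 they gave 40 and 48 calls (median -0.48 with MI), where 37.7% and 39.3% of all genes were called. For iBET against DMSO the DESeq2 test gave 11 calls, no filter beyond 10 reads 2, and the replicate block 9. The shares of all genes called were 16.2%, 11.2% and 23.8%. Against MM401 DESeq2 gave 3, the block 4, and the removed length and GC trend 2. Over all genes these fits called 13.3%, 19% and 11.9%. In each of these fits the share of members called was below that of all genes. For MI against MM401 the block gave 45 calls, where 46% of all genes were called. The median was -0.33 with DESeq2 size factors, -0.32 by DESeq2, -0.30 with the stricter filter and -0.29 with the trend removed. The block changed no other count by over 1.5 times and ended no call of a named member. With EPZ and MI against DMSO it gave 45 and 52 calls, where 47.6% and 50.6% of all genes were called.

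With 1 library left out, calls ranged from 16 to 39 (EPZ against DMSO), 7 to 47 (MI against DMSO), 0 to 12 (iBET against DMSO), 0 to 4 (MM401 against DMSO), 3 to 32 (EPZ against MM401), 3 to 40 (MI against MM401) and 0 to 6 (iBET against MM401), and medians from -0.52 to -0.18 (EPZ against DMSO), -0.49 to -0.35 (MI against DMSO), -0.12 to 0.039 (iBET against DMSO), -0.088 to -0.002 (MM401 against DMSO), -0.41 to -0.15 (EPZ against MM401), -0.38 to -0.30 (MI against MM401), -0.093 to 0.10 (iBET against MM401) and -0.099 to 0.22 (EPZ against MI). Of the calls with all libraries, 12 of 31 (EPZ) and 4 of 44 (MI) against DMSO and 3 of 25 and 3 of 23 against MM401 were made in all 10 of these fits. No called value of a named member reversed, while medians near 0 (iBET, and EPZ against MI) changed sign; the causes were not tested.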
